A study of Danio rerio with 52 samples.

Results

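The genes described here are the homeobox genes hmx2 and hmx3a, the SoxB1 genes sox1a, sox2 and sox3, and eya1, in cells sorted from the skin of zebrafish larvae. They were taken by name from the probe-to-gene table of the array. Of 7 genes asked for, 6 were listed with a probe set, 1 probe set each, out of 19260 genes tested. The homeobox gene six1b is not listed with one and was not analysed here.

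A neuromast is a small sensory organ in the skin, built of hair cells that sense water flow, the support cells among them and mantle cells at its rim. Hmx2 and Hmx3a are homeodomain transcription factors of the developing ear and lateral line. SoxB1 proteins are HMG-box transcription factors best known for keeping progenitors in an undifferentiated state, and sox2 is a widely used marker of neuromast support cells. Eya1 is a phosphatase and transcriptional co-activator that acts with homeodomain proteins of the Sine oculis class in sensory placodes, and zebrafish that lack it lose hair cells.

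RNA came from cells of about 50 larval skins per sample at 4 days after fertilization, sorted by fluorescence. The untreated populations were hair cells sorted as GFP+ (n = 2, line alpl:mCherry;pou4f3:GFP), mantle cells sorted as mCherry+/GFP+ (n = 4, line alpl:mCherry;Et20), mantle cells sorted as mCherry+ (n = 5) and non-fluorescent skin cells (n = 6). After 5 µM copper sulfate for 1 h, which kills hair cells, mCherry+ mantle cells were collected at 1, 3, 5 and 11 h (n = 4 each) and non-fluorescent cells at the same times (n = 7 at 1 h, n = 4 at the others). The untreated mCherry+ and non-fluorescent arrays are the controls of the copper series, and the sample labels give no transgenic line for either population. The mCherry label follows the alpl reporter and the GFP label the pou4f3 reporter or the Et20 enhancer trap, so each population is what its reporter marks. Hair cells and mCherry+/GFP+ cells were pooled from several sorts, and nothing says that replicates came from separate clutches. The p-values therefore set differences against the spread between these samples only. Per the labels a few samples were left out for not clustering with their group, which can make that spread and the p-values too small.

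Values are levels on a log2 scale, on which 1 unit is a doubling, and one gene's level cannot be set against another's. A gene counts as called where its limma p, adjusted over all genes, was under 0.05. Differences are ± SE, levels ± SD. Counts of called genes, their backgrounds and results with an array left out are on the deposited values unless said otherwise. The array mean over all probe sets was between 4.29 and 4.37 for the 16 mCherry+ arrays after copper and between 4.45 and 4.48 for the 19 non-fluorescent ones. For the 17 arrays of untreated cells it was between 4.27 and 4.30. Copper and array set therefore cannot be told apart in a comparison of treated with untreated cells. The same holds for a difference of responses between the populations, since their treated arrays form separate sets. Where setting the array medians equal moved the median of all genes by more than 0.1, and in every difference of responses, the sizes of differences stand relative to array medians unless said otherwise. Among the untreated comparisons this covers mCherry+ and mCherry+/GFP+ cells against non-fluorescent cells. Differences of hair cells stay on the deposited values, so they do not share a scale with those of the mantle sorts against non-fluorescent cells. The number of arrays limits the precision throughout. The hair cell factor pou4f3 was at 9.64 ± 0.020 in hair cells and 3.94 to 4.12 on average in the other untreated populations. The reporter gene alpl averaged 7.56 ± 0.33 in mCherry+/GFP+ cells, 6.68 ± 0.33 in mCherry+ cells and 6.71 ± 0.25 in hair cells, against 6.31 ± 0.18 in non-fluorescent cells, and the means of mCherry+ cells and hair cells differed by less than their SD.

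The first comparison asked how the 3 reporter-marked populations differ from non-fluorescent skin cells. On the deposited values, 5 of the 6 genes were called higher in mCherry+ mantle cells than in non-fluorescent cells, where 15.1% of all genes were called higher, and 1, sox3, was lower, where 17.2% were. In mCherry+/GFP+ mantle cells all 6 measured genes were higher, against a background of 14.0%. In hair cells 5 were higher (background 15.5%) and sox3 lower (background 20.8%). The genes were chosen with earlier results of these data known, so counts set beside a background, here and below, are not a test of an excess. The median difference of the 6 genes was 2.51 for mCherry+ and 4.40 for mCherry+/GFP+ cells relative to the array medians, and 2.93 for hair cells, against 0.17, 0.055 and -0.057 over all genes. In bulk samples, fewer cells of a type and less RNA per cell cannot be told apart. Other cell type lists moved with these comparisons. The keratinocyte list, as the mean log2 level of its 19 measured genes, was at 7.13 in hair cells, 7.46 in mCherry+/GFP+ cells and 6.48 in mCherry+ cells, against 8.95 in non-fluorescent cells, with 15, 11 and 16 genes lower and 0, 1 and 0 higher. The connective tissue list of 14 genes was at 4.53, 7.79 and 9.79 in the same order, against 8.97 in non-fluorescent cells, with 14, 8 and 2 genes lower and 0, 2 and 7 higher. The part of these lists in the results was not tested. The deposited values carry no detection calls, and hmx2, hmx3a, sox1a and sox3 averaged 4.36, 3.97, 2.98 and 4.50 in non-fluorescent cells, below the median of 4.90 over all genes, so these levels may lie near background and the folds against them are estimates on the log2 scale only.

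**Figure D1:**
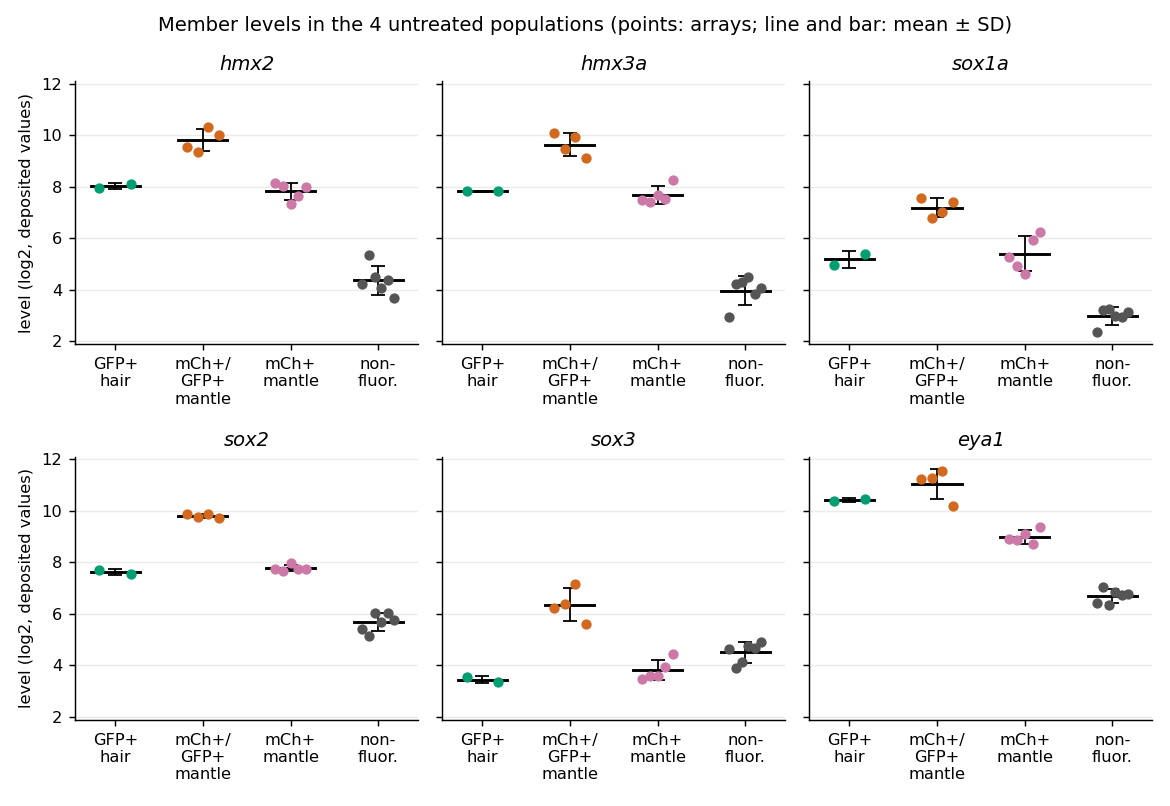
Levels (log2, vertical axis) of the 6 genes in each untreated array, by sorted population; points are arrays, and the line and bar are the mean ± SD. In the sox3 panel the mCherry+/GFP+ arrays lie above the rest, and in the other panels the non-fluorescent arrays lie below all others. How many of all genes separate like this from non-fluorescent cells was not counted.

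The Hmx genes had the largest differences of the 6 from non-fluorescent cells in both mantle populations. Hmx2 was at 7.95 and 8.10 in hair cells, at 9.55, 9.37, 10.32 and 10.01 in mCherry+/GFP+ cells and at 8.13, 8.03, 7.32, 7.63 and 8.00 in mCherry+ cells, against 3.66, 4.31 and 5.34 (lowest, median, highest) in non-fluorescent cells. Every array of the 3 marked populations lay above every non-fluorescent array, a separation that was not counted over all genes. Relative to the array medians hmx2 was higher by 3.62 ± 0.26 in mCherry+ cells (12.3-fold, limma adjusted p = 7.27e-09) and by 5.56 ± 0.28 in mCherry+/GFP+ cells (47.3-fold, limma adjusted p = 5.39e-11). In hair cells it was higher by 3.67 ± 0.34 (limma adjusted p = 7.04e-08). Hmx3a, a closely related homeobox gene, was at 7.82 and 7.83 in hair cells, at 10.07, 9.45, 9.91 and 9.11 in mCherry+/GFP+ cells and at 7.49, 7.41, 7.67, 7.54 and 8.26 in mCherry+ cells, against 2.93, 4.13 and 4.49 (lowest, median, highest) in non-fluorescent cells. These groups did not overlap with the non-fluorescent arrays either. Relative to the array medians the differences were 3.86 ± 0.25 in mCherry+ cells (14.5-fold, limma adjusted p = 1.60e-09) and 5.78 ± 0.26 in mCherry+/GFP+ cells (55.0-fold, limma adjusted p = 1.77e-11). In hair cells the difference was 3.86 ± 0.33 on the deposited values (limma adjusted p = 3.28e-08). In both genes the order of means was mCherry+/GFP+, hair cells, mCherry+, non-fluorescent, and the hair cell and mCherry+ arrays overlapped. The order of hair cells and mCherry+ cells turned with a set block for the untreated arrays (-0.24 for hmx2 and -0.54 for hmx3a, hair cells minus mCherry+ cells), a term fitted on equal array medians whose 3 levels are mCherry+ replicates 1 and 2 plus non-fluorescent 5 and 6, mCherry+ replicates 3 and 4 plus non-fluorescent 1, and all the others. The genes hmx2 and hmx3a are neighbours on chromosome 17 in RefSeq. Over the 17 untreated arrays their values correlated at r = 0.97, which holds the differences between populations, and at r = 0.085 within populations. Within the groups of the copper series, with its untreated controls, r was 0.50 over 46 arrays.

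Of the SoxB1 genes, sox1a and sox2 also had their highest mean in mCherry+/GFP+ cells and their lowest in non-fluorescent cells, with the mCherry+ mean above that of hair cells. Sox3 was highest in mCherry+/GFP+ cells too, but its mean in non-fluorescent cells was above those of mCherry+ cells and hair cells. Sox2 was at 7.70 and 7.54 in hair cells, at 9.87, 9.75, 9.89 and 9.72 in mCherry+/GFP+ cells and at 7.75, 7.67, 7.98, 7.75 and 7.76 in mCherry+ cells, against 5.15, 5.73 and 6.05 (lowest, median, highest) in non-fluorescent cells. The mCherry+/GFP+ arrays stood above all others, and hair cells and mCherry+ cells overlapped. Sox2 was higher by 2.25 ± 0.15 in mCherry+ cells (4.76-fold, limma adjusted p = 2.74e-09), by 4.24 ± 0.16 in mCherry+/GFP+ cells (18.8-fold, limma adjusted p = 3.01e-12) and by 1.94 ± 0.20 in hair cells (limma adjusted p = 4.50e-07). Sox1a, known from the neural tube and lens, was at 4.95 and 5.40 in hair cells, at 7.55, 6.77, 7.02 and 7.42 in mCherry+/GFP+ cells and at 5.28, 4.92, 4.62, 5.91 and 6.24 in mCherry+ cells, against 2.35, 3.05 and 3.27 (lowest, median, highest) in non-fluorescent cells. Its mCherry+ arrays were the most spread of its 4 populations and enclosed both hair cell arrays. The differences of sox1a were 2.57 ± 0.26 in mCherry+ cells (limma adjusted p = 4.42e-07), 4.32 ± 0.28 in mCherry+/GFP+ cells (limma adjusted p = 1.64e-09) and 2.19 ± 0.35 in hair cells (limma adjusted p = 7.06e-05).

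Sox3, a SoxB1 gene of neural and placodal progenitors, was at 3.55 and 3.35 in hair cells, at 6.24, 6.40, 7.16 and 5.62 in mCherry+/GFP+ cells and at 3.49, 3.57, 3.60, 3.95 and 4.43 in mCherry+ cells, against 3.91, 4.65 and 4.92 (lowest, median, highest) in non-fluorescent cells. Among the untreated populations only the mCherry+/GFP+ arrays were above the non-fluorescent ones, while mCherry+ arrays overlapped with both non-fluorescent and hair cell arrays. Relative to the array medians sox3 was higher by 1.97 ± 0.26 in mCherry+/GFP+ cells (3.91-fold, limma adjusted p = 1.20e-05). In mCherry+ cells its difference was -0.69 ± 0.25 on the deposited values (limma adjusted p = 0.0422) but -0.54 ± 0.24 relative to the array medians, where it was not called (limma adjusted p = 0.0908). The deposited call was lost without any of non-fluorescent replicates 1, 4, 5 or 6 or mCherry+ replicates 1 to 4 (limma adjusted p = 0.0563 to 0.104). In hair cells it was lower, with a difference of -1.05 ± 0.34 (limma adjusted p = 0.0203). With 2 hair cell arrays, that call was lost when either was left out (limma adjusted p = 0.0816 without replicate 1 and 0.158 without replicate 2) and with the set block (limma adjusted p = 0.0703). Sox3 averaged 3.45 in hair cells, 3.81 in mCherry+ cells and 4.50 in non-fluorescent cells. These means lie below the median of 4.90 over all genes and may be near background.

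Eya1 had the same order of mean levels as the Hmx genes, but without overlap between hair cells and mCherry+ cells. It was at 10.37 and 10.47 in hair cells, at 11.22, 11.27, 11.53 and 10.21 in mCherry+/GFP+ cells and at 8.90, 8.89, 9.10, 8.70 and 9.38 in mCherry+ cells, against 6.36, 6.75 and 7.05 (lowest, median, highest) in non-fluorescent cells. Both hair cell arrays lay above all mCherry+ arrays, and the mCherry+/GFP+ arrays fell on both sides of them. The differences from non-fluorescent cells were 2.45 ± 0.20 in mCherry+ cells (5.46-fold, limma adjusted p = 3.47e-08), 4.47 ± 0.22 in mCherry+/GFP+ cells (22.2-fold, limma adjusted p = 3.49e-11) and 3.73 ± 0.28 in hair cells (limma adjusted p = 4.02e-09).

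**Figure D2:**
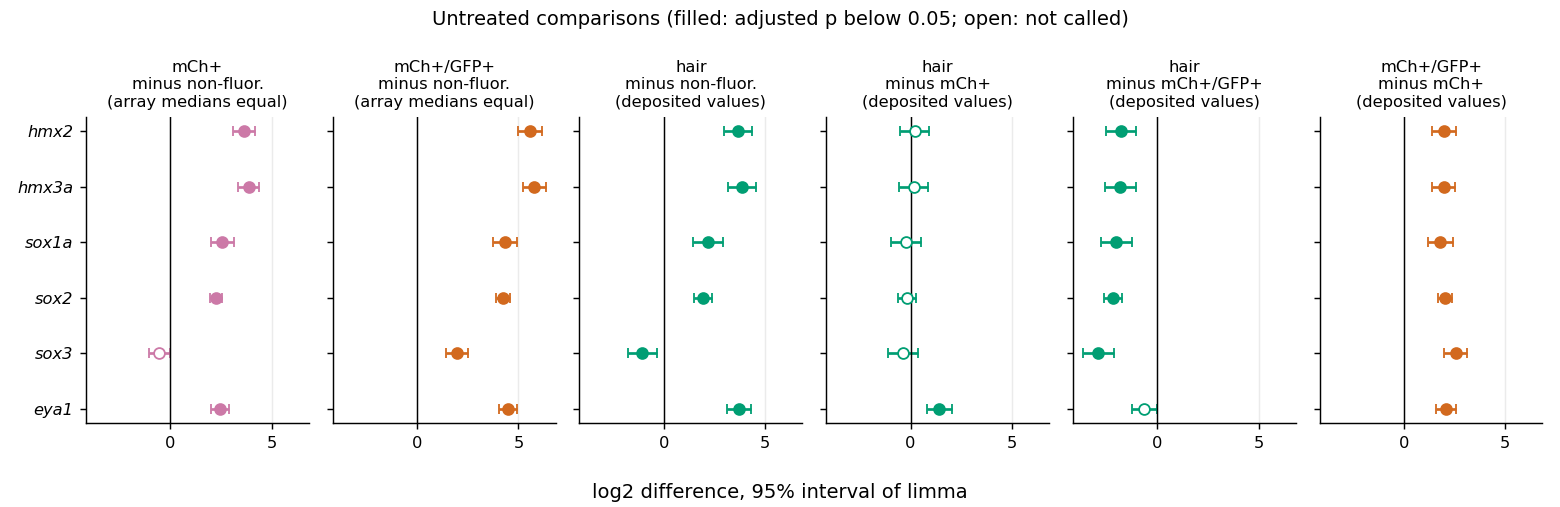
Log2 differences (horizontal axis) of the 6 genes in the 6 untreated comparisons, as limma estimates with 95% intervals; filled points were called and open points were not, and each panel names its scale. Hair cells minus mCherry+ cells shows 5 open points near 0 and eya1 at 1.43.

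The marked populations were then set against each other. In hair cells 1 of the 6 genes, eya1, was called higher than in mCherry+ mantle cells, where 17.6% of all genes were. None of the 6 was called lower, where 3469 of the 19260 genes were. Eya1 was higher by 1.43 ± 0.28 (limma adjusted p = 0.000540). The other differences were not called. The difference was 0.20 for hmx2 (95% interval -0.52 to 0.93), 0.15 for hmx3a (-0.57 to 0.87) and -0.16 for sox2 (-0.60 to 0.28). For sox1a it was -0.22 (-0.98 to 0.54) and for sox3 -0.36 (-1.09 to 0.37). These intervals leave room for differences of up to about 1 unit, so the missing calls do not show that the levels were alike. The hair cell group differed from mCherry+ cells in its cell type markers: the hair cell list, as the mean log2 level of its 22 measured genes, was at 8.95 to 8.97 in hair cells and 4.12 to 4.43 in mCherry+ cells, with 21 genes higher and 0 lower. The neuromast support and mantle list of 29 measured genes was at 5.40 to 5.46 in hair cells and 7.28 to 7.65 in mCherry+ cells, with 1 gene higher and 17 lower. In non-fluorescent cells that list was at 5.95 to 6.14. The pigment cell list, at 6.11 to 6.14 in hair cells and 3.89 to 4.04 in mCherry+ cells, had 8 of 13 genes higher and 1 lower, and the connective tissue list was at 4.52 to 4.53 in hair cells and at a mean of 9.79 ± 0.13 in mCherry+ cells, with 0 of 14 genes higher and 14 lower. The part of these lists in the hair cell values was not tested.

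Against mCherry+/GFP+ mantle cells, hair cells held less of 5 of the 6 genes (background 18.2%). The differences were -1.78 ± 0.36 for hmx2 (limma adjusted p = 0.000633), -1.81 ± 0.35 for hmx3a (limma adjusted p = 0.000520) and -2.01 ± 0.37 for sox1a (limma adjusted p = 0.000310). For sox2 the difference was -2.19 ± 0.22 (limma adjusted p = 1.92e-07) and for sox3 -2.91 ± 0.36 (limma adjusted p = 3.40e-06). Eya1 differed by -0.64 ± 0.29 and was not called (limma adjusted p = 0.104), but it was without the low mCherry+/GFP+ replicate 4 (-0.92, limma adjusted p = 0.00473). The lists moved here too. Of the 22 hair cell genes 20 were higher in hair cells than in mCherry+/GFP+ cells and 0 lower, of the 13 pigment cell genes 8 and 0, of the 29 neuromast support and mantle genes 4 and 22, and of the 14 connective tissue genes 1 and 12, and their part was not tested.

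Between the mantle sorts, all 6 genes were higher in mCherry+/GFP+ cells than in mCherry+ cells, where 12.6% of all genes were called. For each of them every mCherry+/GFP+ array lay above every mCherry+ array, which held for 1928 of the 19260 genes. The median difference was 2.01, against -0.063 over all genes. Sox3 differed most, by 2.55 ± 0.28 (limma adjusted p = 3.29e-06), and sox1a least, by 1.79 ± 0.29 (limma adjusted p = 0.000167). Hmx2, hmx3a, sox2 and eya1 lay between them, at 1.99, 1.96, 2.03 and 2.06. With the set block all 6 stayed called, with smaller differences of 1.29 for hmx3a and 1.23 for sox1a. The connective tissue list moved with this comparison, at a mean of 7.79 ± 0.57 in mCherry+/GFP+ cells and 9.79 ± 0.13 in mCherry+ cells, with 0 of 14 genes higher and 12 lower. The keratinocyte list was at 7.23 to 7.75 in mCherry+/GFP+ cells and 5.88 to 6.95 in mCherry+ cells, with 8 of 19 genes higher and 0 lower. The neuromast support and mantle list was at 7.65 to 7.93 in mCherry+/GFP+ cells and 7.28 to 7.65 in mCherry+ cells, with 14 genes higher and 9 lower. The part of these lists in the differences was not tested, and the labels name a transgenic line for the mCherry+/GFP+ sort but none for the mCherry+ sort.

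Relatives of the 6 genes were measured with them. The Hmx family list had 4 of 4 genes measured. Hmx1 and hmx4 were not called in any marked population against non-fluorescent cells on the deposited values, but relative to the array medians both were called higher in mCherry+ cells, hmx1 by 0.46 ± 0.14 and hmx4 by 0.70 ± 0.27. Of 9 SoxB genes, 4 were higher and 2 lower in hair cells, 5 higher and 2 lower in mCherry+/GFP+ cells, and 3 higher and 3 lower in mCherry+ cells, each against non-fluorescent cells. The SoxB2 gene sox21a, a repressor in the SoxB family, was higher in all 3, by 1.85 in hair cells, 3.46 in mCherry+/GFP+ cells and 2.38 in mCherry+ cells. Sox1b was higher in hair cells (2.54) and mCherry+/GFP+ cells (2.22) and differed by 0.99 in mCherry+ cells, not called. Its mCherry+/GFP+ arrays ranged from 4.97 to 8.88, and the lowest lay within the non-fluorescent range of 4.01 to 6.34. Sox19a, the SoxB1 gene of early embryos and the neural plate, was lower in all 3 (-1.05, -0.87 and -1.22 in the same order). The SoxB2 gene sox14 was lower in mCherry+ cells by -1.56. In mCherry+/GFP+ cells sox14 averaged 4.03, against 4.97 in non-fluorescent cells, and was among the 2 called lower on the deposited values.

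**Figure D3:**
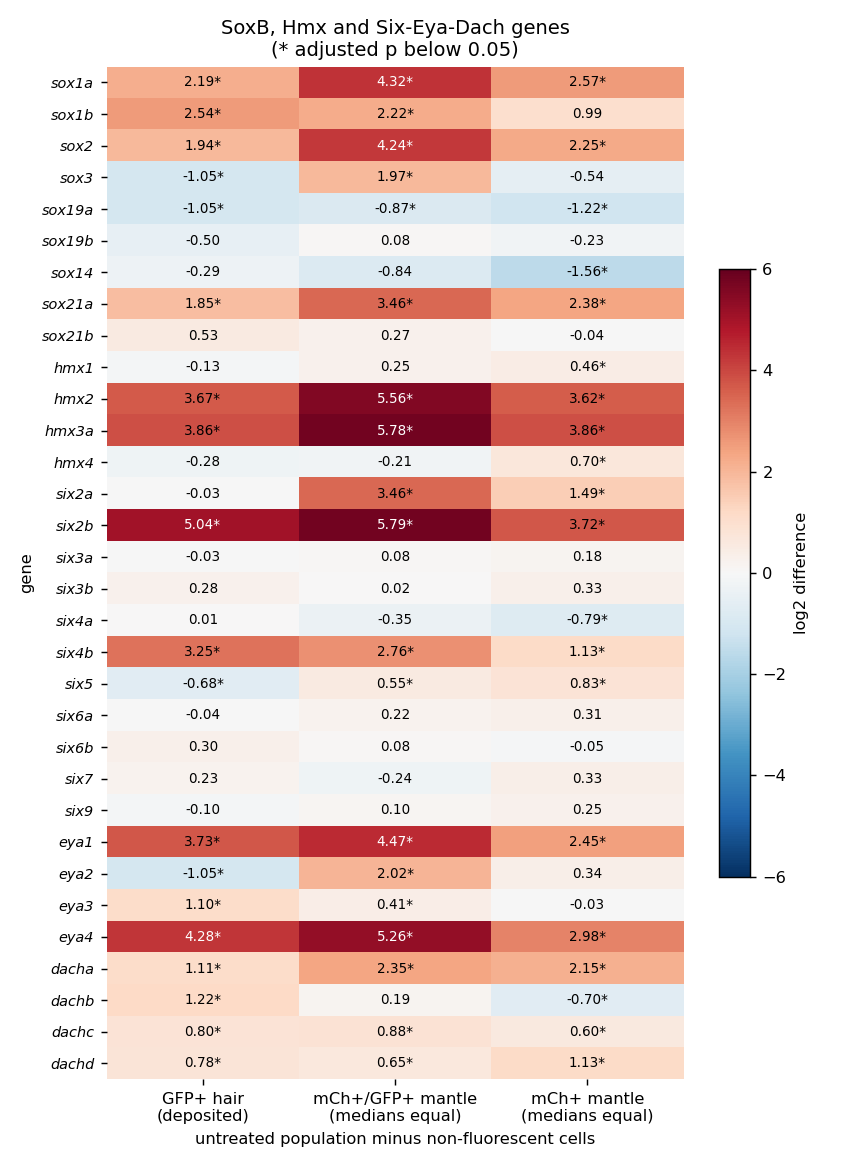
Log2 differences of the measured SoxB, Hmx and sine oculis-Eya-Dach genes (rows) from non-fluorescent cells in the 3 marked untreated populations (columns, each with its scale); the colour bar gives the log2 difference and stars mark called genes. Six2b, hmx2 and hmx3a are at 3.62 or more in every column.

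In the sine oculis, Eya and Dach families, whose products form a transcription complex, 19 of 21 listed genes were measured. Against non-fluorescent cells 9 were higher and 2 lower in hair cells, 9 higher and 0 lower in mCherry+/GFP+ cells, and 8 higher and 2 lower in mCherry+ cells. With equal array medians the counts were 11 higher and 0 lower in mCherry+/GFP+ cells and 9 higher and 2 lower in mCherry+ cells. The list medians, on the scale used for each comparison, were 0.30 in hair cells, 0.55 in mCherry+/GFP+ cells and 0.34 in mCherry+ cells, against -0.057, 0.055 and 0.17 over all genes. The sine oculis homeobox gene six2b was higher by 5.04 ± 0.34 in hair cells, 5.79 ± 0.26 in mCherry+/GFP+ cells and 3.72 ± 0.25 in mCherry+ cells. Another Eya gene, eya4, was higher by 4.28, 5.26 and 2.98 in the same order. Six4b, another sine oculis homeobox gene, was higher by 3.25 in hair cells, 2.76 in mCherry+/GFP+ cells and 1.13 in mCherry+ cells. Six2a, by contrast, was at -0.03 in hair cells, not called, and higher in both mantle sorts (3.46 and 1.49). Eya2 was lower in hair cells (-1.05), higher in mCherry+/GFP+ cells (2.02) and not called in mCherry+ cells (0.34). Of the wider otic and lateral line placode list 45 of 50 genes were measured. In hair cells 10 of them were higher and 14 lower, in mCherry+/GFP+ cells 11 and 12, and in mCherry+ cells 17 and 6. Of all 19260 genes on the deposited values, 2979 were higher and 4009 lower in hair cells. In mCherry+/GFP+ cells 2697 and 3347 were, and in mCherry+ cells 2912 and 3304. These totals also stand beside the SoxB counts above.

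The genes whose untreated pattern came closest to each of the 6 were ranked by Pearson correlation over the 17 arrays, which share the 4 populations, and 16933 named genes were searched. Eya1 was closest to eya4 (r = 0.996), which also followed it within populations (r = 0.92), and then to six2b (0.98) and the keratin gene krt18b (0.98). Hmx3a was closest to the immunoglobulin-family gene igsf9a (0.99), the keratin gene krt1-c5 (0.99) and the adaptor gene she (0.99). For hmx2 these were she (0.98), DOCK6 (0.98) and hmx3a (0.97), and for sox1a hmx3a, igsf9a and the ephrin gene efna2b (0.97 each). Sox2 was closest to efna2b (0.98), krt1-c5 (0.97) and the homeobox gene nkx3-2 (0.97), with r = -0.0055 for efna2b within populations. Sox3 came closest to ubtfl, the transporter gene slc44a4 and the homeodomain-only gene hopx (0.93 each), and its r with the other 5 genes was 0.36 to 0.55. Among those 5 genes r was 0.92 to 0.97.

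The second comparison asked how these genes behave while hair cells regenerate after copper. In mCherry+ mantle cells, 0 of the 6 genes were called at 1 h against untreated cells, where 1.50% of all genes were, and the treated and untreated arrays overlapped for each; 0 had an unadjusted p under 0.05 in limma. At 3 h sox1a was called lower (background 6.95%), at 5 h eya1 higher (background 5.85%) and at 11 h sox1a and hmx3a higher (background 3.13%). The median difference of the 6 genes was 0.17 at 1 h, -0.22 at 3 h, 0.26 at 5 h and 0.78 at 11 h, against 0.0088 to 0.055 over all genes. All 4 comparisons share the untreated arrays. In both populations replicate 4 at 3 h deviated from its group as the mirror image of replicate 4 at 5 h (r = -1 over all genes), so results at these times are also given with a set block, a term for the other replicates of both times fitted on equal array medians. The spread at these times is therefore not that of independent arrays. From equal array medians to the set block, calls over all genes became fewer. Against untreated mCherry+ cells they fell from 2795 to 360 at 3 h and from 2344 to 135 at 5 h. In non-fluorescent cells against 1 h they fell from 4330 to 824 at 3 h and from 4087 to 646 at 5 h. The set block moved the differences of the 6 genes from untreated cells by nearly the same small amount within a population. Its main effect was a larger SE, from 0.27 to 0.38 for sox1a in mCherry+ cells at 3 h. Differences with the set block are therefore no separate check of size. A call lost with the set block does not show that the difference was absent.

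**Figure D4:**
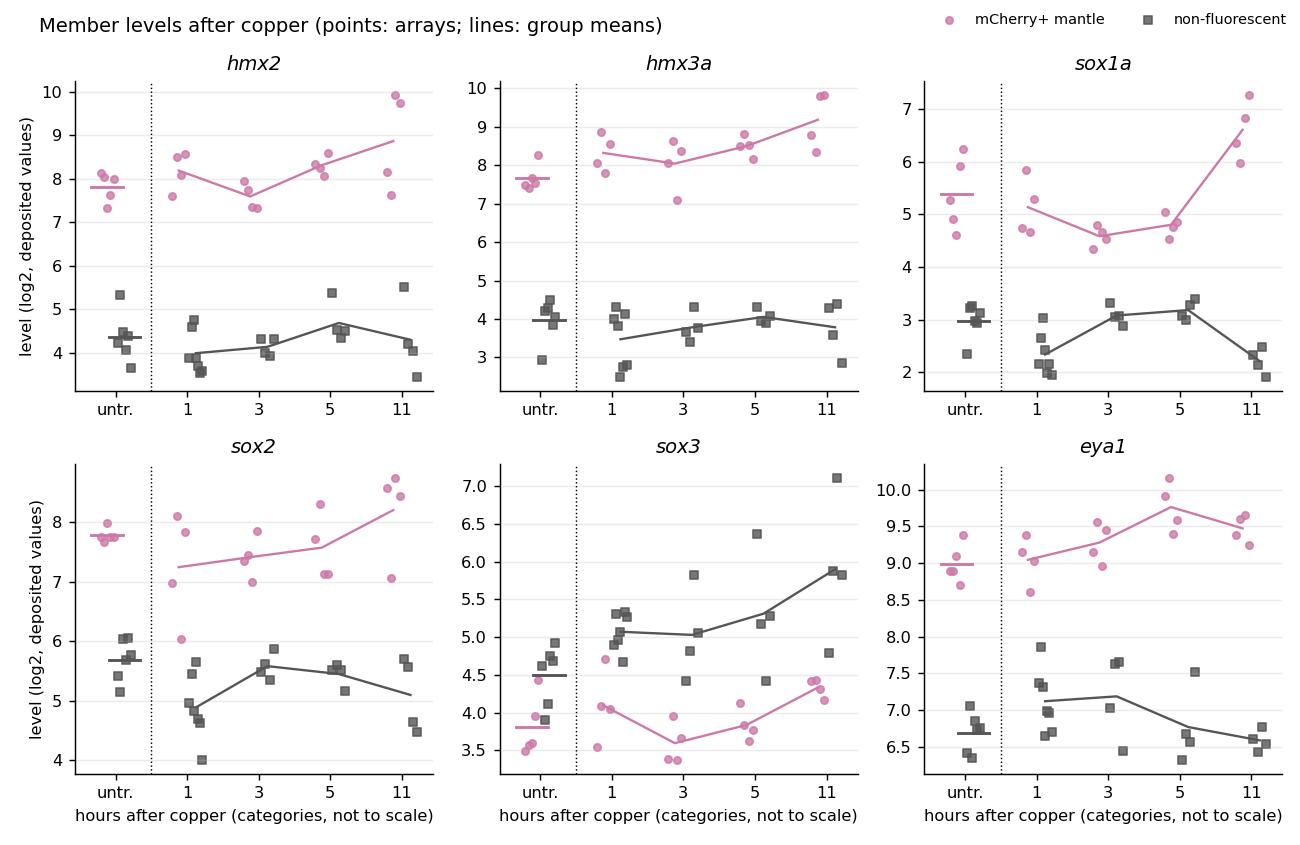
Levels (log2, vertical axes with a scale for each gene) of the 6 genes in mCherry+ mantle cells (circles) and non-fluorescent cells (squares) in untreated larvae and 1, 3, 5 and 11 h after copper; points are arrays and lines join group means. Sox1a in mCherry+ cells has its 4 highest treated arrays at 11 h, and sox3 is the 1 gene with higher group means in non-fluorescent cells.

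Sox1a was the 1 gene of the 6 called in a difference of responses between the populations. In mCherry+ cells it was at 4.75, 5.84, 4.67 and 5.29 at 1 h, at 4.35, 4.79, 4.67 and 4.52 at 3 h, at 5.05, 4.54, 4.75 and 4.86 at 5 h, and at 6.35, 5.97, 6.84 and 7.26 at 11 h. All 11 h arrays lay above all arrays of the earlier times, which was not counted over all genes. Of the 11 h arrays, 1 fell within the untreated range of 4.62 to 6.24. Against untreated cells sox1a rose at 11 h by 1.21 ± 0.26 (limma adjusted p = 0.00565). Against 1 h, within arrays of the same set, it rose by 1.47 ± 0.28 (limma adjusted p = 0.0197), 1 of 7 genes called higher in that comparison (background 0.0363%). That call was lost without 1 h replicate 1 (limma adjusted p = 0.0880), 1 h replicate 3 (0.0735) or 11 h replicate 3 (0.0595), and it and the call against untreated cells were lost when only the groups compared were fitted. In non-fluorescent cells sox1a was at 2.33, 2.13, 2.47 and 1.92 at 11 h, close to its lowest levels. The responses of the 2 populations at 11 h differed by 2.07 ± 0.38 relative to the array medians (4.19-fold, limma adjusted p = 0.00664), where 0.182% of all genes had a positive difference called. On the deposited values the difference was 1.98 (limma adjusted p = 0.00554, background 0.254%), and the call held without each of the 19 arrays in turn. Part of this difference is the non-fluorescent response of -0.91, at levels that may lie near background, so the fold is an estimate on the log2 scale only. The lower sox1a level at 3 h, -0.81 ± 0.26 (limma adjusted p = 0.0323), was -0.78 ± 0.38 with the set block and not called (limma adjusted p = 0.328). Nor was it called without untreated replicates 4 or 5 or 3 h replicates 1, 3 or 4 (limma adjusted p = 0.0540 to 0.141). At 3 h the keratinocyte list had 12 of 19 genes higher and 0 lower and the neuromast support and mantle list 0 of 29 higher and 7 lower, and their part was not tested. At 5 h the sox1a difference of -0.59 was called only without untreated replicate 3 (-0.79, limma adjusted p = 0.0484).

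Hmx3a was at 8.06, 8.87, 7.79 and 8.55 at 1 h, at 8.06, 8.63, 7.10 and 8.37 at 3 h, at 8.49, 8.80, 8.52 and 8.16 at 5 h, and at 8.77, 8.33, 9.79 and 9.82 at 11 h. The 11 h arrays lay above the untreated range of 7.41 to 8.26, which was not counted over all genes, and overlapped with the other times. Hmx3a rose at 11 h against untreated cells by 1.50 ± 0.36 (limma adjusted p = 0.0128), a call that was lost without 11 h replicate 3 (limma adjusted p = 0.0518) or replicate 4 (0.0578). Against 1 h it differed by 0.86 ± 0.38, not called (limma adjusted p = 0.458), and its difference of responses of 1.77 ± 0.50 was not called either (limma adjusted p = 0.0802). Hmx2 was at 8.16, 7.64, 9.92 and 9.75 at 11 h, a pair of arrays high and a pair within the untreated range of 7.32 to 8.13 or just above it. Its difference from untreated cells was 1.05 ± 0.36, not called (limma adjusted p = 0.0987), and it was called without 11 h replicate 2 (1.46, limma adjusted p = 0.0224). The same 11 h replicates 3 and 4 were the higher ones for hmx2, hmx3a and sox1a.

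Eya1 in mCherry+ cells was at 9.92, 10.16, 9.39 and 9.59 at 5 h, against 8.70 to 9.38 in untreated cells. The lowest 5 h array, at 9.391, lay just above the highest untreated array, at 9.385. This separation was not counted over all genes. It rose at 5 h by 0.77 ± 0.24 against untreated cells (limma adjusted p = 0.0266) and by 0.72 ± 0.25 against 1 h (limma adjusted p = 0.0490, background 4.47%). With the set block neither was called (limma adjusted p = 0.236 and 0.239), while the difference from untreated cells was 0.82 ± 0.33. Leaving out untreated replicates 1, 2 or 4 or 5 h replicates 1 or 2 ended the first call (limma adjusted p = 0.0503 to 0.104), and leaving out 1 h replicates 1, 3 or 4 or 5 h replicates 1, 2 or 4 ended the second (0.0620 to 0.170). At 5 h the keratinocyte list had 5 of 19 genes higher and 0 lower and the neuromast support and mantle list 1 of 29 higher and 4 lower, and their part was not tested. Eya1 levels at 11 h, 9.38, 9.60, 9.66 and 9.25, overlapped with untreated cells.

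Sox2 and sox3 were not called at any time in mCherry+ cells. Sox2 was at 6.99, 8.11, 6.04 and 7.84 at 1 h and at 8.58, 7.05, 8.74 and 8.44 at 11 h, spread on both sides of its narrow untreated range of 7.67 to 7.98. Its difference at 11 h was 0.42 ± 0.34 against untreated cells. Sox3 was at 4.42, 4.44, 4.32 and 4.16 at 11 h, within or near its untreated range, with a difference of 0.52 (-0.12 to 1.16). Between 1 h and 3 h, 0 of the 6 genes were called in mCherry+ cells (background 13.7%), and 0 had an unadjusted p under 0.05 in limma.

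Other lists in mCherry+ cells at 11 h were counted beside these genes. The neuromast support and mantle list was at 7.31 to 7.68 at 11 h, at 7.30 to 7.64 at 1 h and at 7.28 to 7.65 in untreated cells, with 2 of 29 genes higher and 0 lower at 11 h against untreated cells. The keratinocyte list was at 7.08 to 7.69 at 11 h, at 6.43 to 7.61 at 1 h and at 5.88 to 6.95 in untreated cells, with 5 of 19 genes higher and 0 lower at 11 h, and its part in the results was not tested. Hair cell markers were at 4.23 to 4.31 at 11 h, below their 8.95 to 8.97 in sorted hair cells.

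Among the relatives, six2b rose in mCherry+ cells at 11 h by 1.44 ± 0.29 (limma adjusted p = 0.00335), with a difference of responses of 1.94 ± 0.41 (limma adjusted p = 0.0176). At 3 h six2b fell by 1.58 ± 0.29 and six2a by 2.62 ± 0.39 against untreated cells (limma adjusted p = 0.000287 and 1.38e-05), and both stayed called with the set block (limma adjusted p = 0.0378 and 0.00617). Of the 19 sine oculis, Eya and Dach genes, 1 was higher and 7 lower at 3 h, 1 higher and 1 lower at 5 h, and 2 higher and 0 lower at 11 h. Of all 19260 genes, 1539 were higher and 1339 lower at 3 h, 1127 and 1261 at 5 h, and 602 and 168 at 11 h. These counts are without the set block, under which calls over all genes at 3 h and 5 h became fewer. Of the 9 SoxB genes 2 were lower at 3 h, 0 were called at 1 h and 5 h, and 2, sox1a and sox21a, were higher at 11 h, while sox21a was not called with equal array medians (limma adjusted p = 0.0812). Sox1b fell at 3 h by 1.67 ± 0.46 (limma adjusted p = 0.0102), which was not called with the set block (limma adjusted p = 0.165).

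In non-fluorescent cells the copper series gave few calls for these genes. At 1 h sox1a was called lower on the deposited values (background 0.940%), and relative to the array medians sox1a and sox2 were (background 2.58%). At 3 h and 5 h none was called (backgrounds 23.9% and 16.4%), with 1 gene at each time under an unadjusted p of 0.05 in limma on the deposited values, eya1 and sox3. With the array medians set equal this held for sox3 at 5 h but not for eya1 at 3 h. At 11 h sox3 was called higher (background 7.89%), and relative to the array medians sox1a was also called lower (background 1.19%). Sox3 was at 4.79, 5.88, 7.10 and 5.82 at 11 h, against 3.91 to 4.92 in untreated cells, so that the lowest 11 h array fell inside the untreated range. Relative to the array medians it rose by 1.26 ± 0.30 (2.39-fold, limma adjusted p = 0.0142), and the call on the deposited values (1.40 ± 0.30, limma adjusted p = 0.00397) held without each array in turn but not when only the groups compared were fitted. Against 1 h sox3 differed by 0.83 ± 0.30, not called (limma adjusted p = 0.127), but it was without 11 h replicate 1 (1.20, limma adjusted p = 0.0322). Levels of the neuron list were 4.19 to 4.51 at 11 h and 3.97 to 4.80 in untreated cells, with 1 of 19 genes higher and 1 lower. Those of the central nervous system progenitor list were 4.15 to 4.48 at 11 h and 4.00 to 4.11 in untreated cells, with 1 of 14 higher and 0 lower, and its part in the sox3 result was not tested.

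Sox1a in non-fluorescent cells lay at the low end of the array's range. It was at 1.96, 2.17 and 3.03 (lowest, median, highest) at 1 h, at 2.88 to 3.32 at 3 h, at 3.00 to 3.39 at 5 h and at 1.92 to 2.47 at 11 h, against 2.35 to 3.27 in untreated cells. The 1 h and 11 h arrays reached lower than the others. Relative to the array medians the difference was -0.84 ± 0.23 at 1 h (limma adjusted p = 0.0242) and -0.91 ± 0.26 at 11 h (limma adjusted p = 0.0446), while on the deposited values it was -0.64 ± 0.22 (limma adjusted p = 0.0492) and -0.77 ± 0.25 (limma adjusted p = 0.0501). The deposited call at 1 h was lost when any of untreated replicates 2 to 6 or 1 h replicates 1, 4, 5, 6 or 7 was left out, 10 of the 13 arrays (limma adjusted p = 0.0608 to 0.103), and at 11 h sox1a was called without untreated replicate 1 (limma adjusted p = 0.0275). Against 1 h sox1a was higher by 0.74 ± 0.25 at 3 h (limma adjusted p = 0.0272, background 9.30%) and by 0.84 ± 0.25 at 5 h (limma adjusted p = 0.0126, background 8.83%), and neither was called with the set block (limma adjusted p = 0.170 and 0.137). The 3 h call was also lost without 1 h replicates 5 or 7 or 3 h replicates 1, 2 or 3 (limma adjusted p = 0.0515 to 0.0911). At 11 h against 1 h none of the 6 genes was called (background 2.13%), and 2, sox3 and eya1, had an unadjusted p under 0.05 in limma. Sox2 at 1 h was at 4.01, 4.82 and 5.65 (lowest, median, highest), against 5.15 to 6.05 in untreated cells, and relative to the array medians it fell by 0.99 ± 0.28 (limma adjusted p = 0.0317), with -0.80 ± 0.28 on the deposited values, not called (limma adjusted p = 0.0548) unless untreated replicate 2 or 1 h replicates 2 or 4 were left out (0.0310 to 0.0452). Leaving out 1 array also gave a call to eya1 at 3 h (0.74, limma adjusted p = 0.0242 without 3 h replicate 4) and to sox3 at 5 h (1.11, limma adjusted p = 0.0198 without 5 h replicate 3).

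Responses of the mantle and non-fluorescent cells were compared directly at each time. None of the 6 genes differed in response at 1 h, 3 h or 5 h by this test (backgrounds 2.22%, 14.2% and 6.85%), and sox1a alone did at 11 h. At an unadjusted p under 0.05 in limma there were 1 (hmx3a), 1 (sox1a) and 2 (sox1a and eya1) at these earlier times on the deposited values, while relative to the array medians sox1a at 5 h was not among them. Without untreated mCherry+ replicate 3 sox1a was also called at 3 h (limma adjusted p = 0.0356), and without untreated non-fluorescent replicate 1 hmx3a was called at 11 h (limma adjusted p = 0.0430), with a difference of 1.89 on the deposited values, against 1.69 with all arrays. Relative to the array medians the other differences at 11 h were 1.77 for hmx3a (95% interval 0.75 to 2.79), 1.19 for hmx2 (0.15 to 2.24) and 1.09 for sox2 (0.14 to 2.04). For eya1 the difference was 0.67 (0.017 to 1.33) and for sox3 -0.79 (-1.65 to 0.076). None of these passed after adjustment over all genes, and sox3 was the 1 gene of the 6 with a negative estimate.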

How the data were processed

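RNA of sorted cells was hybridised to 52 one-colour Affymetrix arrays with 75212 probe sets. Per the submitters' processing notes the deposited log2 values were made with RMA in Partek 6.6. The base of the logarithm is not given in the sources used here and was taken as 2, and depth does not apply to arrays. Per the labels the authors left out a few samples for not clustering with their group. Here each gene was represented by its probe set of highest mean, with 20806 probe sets naming 1 gene, 855 naming several and left out, and 53551 not listed. Differences were fitted with limma 3.58.1 in R 4.3.3 (lmFit and eBayes) over 17 untreated arrays and over 46 arrays of the copper series, more than the plan had counted, with p-values adjusted over 19260 genes by Benjamini-Hochberg in each of 24 comparisons. The hair cell group of 2 arrays was assumed to vary like the others. The calculations were tested on simulated data with independent arrays. That test does not cover the mirror-image arrays at 3 h and 5 h.

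The members and gene lists were chosen with earlier results of these data known. Genes named are the members, their Hmx, SoxB, sine oculis, Eya and Dach relatives and the 3 genes most alike to each member. Of the lists, counts are given. Those not described in the report were counted in hair cells, mCherry+/GFP+ and mCherry+ cells against non-fluorescent cells. Of 15 muscle genes 15, 14 and 15 were lower, of 10 blood and leukocyte genes 8, 10 and 8, of 7 Schwann cell and glia genes 3, 5 and 6 (3 higher in hair cells), and of 10 lens and eye genes 0, 2 and 2 (2 higher in mCherry+ cells). Alternatives were array medians set equal, quantile normalization, replicate and set blocks, dim genes left out, the mean of probe sets, trended robust moderation, fits of only the groups compared, and each array left out in turn.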

Additional observations from a re-analysis of the deposited data

Results flagged for a closer look

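Sox1a in untreated non-fluorescent replicate 1 was at 2.35, below the other 5 arrays at 2.95 to 3.27. Sox2 in untreated mCherry+ replicate 3 was at 7.98, above the other 4 arrays at 7.67 to 7.76. Both stood apart from their group by more than Dixon's critical value, a test made in 66 groups that chance alone meets in about 1 group of 20. The response of sox1a at 11 h differed between mCherry+ mantle cells and non-fluorescent cells by 1.98 on the deposited values (limma adjusted p = 0.00554).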

How the results depend on the processing

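Of 41 called results of the 6 genes, 305 of 328 alternative values kept the call and direction, 23 lost the call and 0 reversed, and 166 of 192 alternative counts stayed within 1.5 times. Some alternatives could change only the call, since they leave each difference of these genes as it was. They are the mean of probe sets, dim genes left out, trended robust moderation and fits of only the groups compared. The direction could not turn there. In the copper series the set block left the differences at 1 h and 11 h from untreated cells as they were with equal array medians. At 3 h and 5 h it moved them by nearly the same small amount for each of the 6 genes in a population. There too it could do little but change the call, so the 0 reversals are a limited check. Over every alternative except leaving out arrays, the other 5 genes kept all calls in the untreated comparisons. Sox3 lost the call in 5 of 40 alternative values, all against non-fluorescent cells. The counts that moved belong to the copper series. In mCherry+ cells the 1 call at 3 h against untreated cells went to 0 with the replicate block, the set block or only the groups compared. The 1 call at 5 h went to 0 with quantile normalization or the set block and to 2 with only the groups compared. The 2 calls at 11 h went to 1 with only the groups compared. The 1 call at 5 h against 1 h went to 0 with trended robust moderation, the set block or only the groups compared, and the 1 call at 11 h against 1 h went to 0 with only the groups compared. In non-fluorescent cells the 1 call at 1 h went to 2 with equal medians, quantile normalization or the set block and to 0 with the replicate block, dim genes left out or only the groups compared. The 1 call at 11 h went to 2 with equal medians, quantile normalization, the mean of probe sets or trended robust moderation and to 0 with only the groups compared. Against 1 h, the 1 call at 3 h went to 0 with quantile normalization, the replicate block or the set block, and the 1 call at 5 h went to 0 with the set block. The cause was not tested. With each array left out in turn, counts ranged from 5 to 6 for mCherry+ and for hair cells against non-fluorescent cells and for hair cells against mCherry+/GFP+ cells. In mCherry+ cells they ranged from 0 to 1 at 3 h, 0 to 2 at 5 h and 1 to 3 at 11 h against untreated cells, and from 0 to 1 at 5 h and at 11 h against 1 h. In non-fluorescent cells they ranged from 0 to 2 at 1 h, 0 to 1 at 3 h and at 5 h and 1 to 2 at 11 h against untreated cells, and from 0 to 1 at 3 h and at 11 h against 1 h. For differences of responses they ranged from 0 to 1 at 3 h and 1 to 2 at 11 h.

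The replicate numbers were not taken to pair the samples. Same-numbered arrays had a median correlation of deviations of -0.0018 over 19 pairs of untreated arrays (4 over 0.1) and -0.0015 over 184 pairs of the copper series (11 over 0.1). The 4 untreated pairs over 0.1 all joined mCherry+ with non-fluorescent arrays, where r was 0.34, 0.20, -0.076, 0.14 and 0.29 for replicates 1 to 5, not over 0.1 in every pair. The strongest untreated value was negative, r = -0.60 between replicate 4 of mCherry+/GFP+ cells and replicate 4 of non-fluorescent cells. Its cause was not tested. The untreated arrays may therefore not all be independent, which can make their p-values too small. With the replicate block sox3 was not called in mCherry+ cells (-0.61, limma adjusted p = 0.107) or hair cells (-0.77, limma adjusted p = 0.142) against non-fluorescent cells. The number of arrays, 2 for hair cells and 4 at most copper times, limits what could be called.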
